A study of Gallus gallus with 6 samples.

Results

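The 10 genes described here, SOD1, SOD2, CAT, PRDX1, PRDX3, TXN, TXNRD1, HMOX1, GCLC and GCLM, encode core enzymes of antioxidant defence and the redox protein thioredoxin. They were chosen by name: every probe set whose platform symbol was a member was taken, which gave 19 probe sets of the 38382 chicken probe sets on the array, and 10 of the 13009 genes with a symbol. For each gene the brightest probe set, by its mean over the 6 arrays, was its main one; 6 genes had several probe sets and 4 had 1. Chicken neural crest cultures had been grown from neural tube explants of stage 9+ embryos for 4 h and then kept for 6 h either in media with homocysteine at a final 100 uM or in media alone. Total RNA was hybridised to Affymetrix chicken arrays, 3 for homocysteine (homocysteine 1, 2 and 3) and 3 for control (control 1, 2 and 3). Per the labels, all samples are of Gallus gallus with no genetic change named. The labels call the source chicken embryo, and the shared extraction text speaks of embryos or tissues, while the design text speaks of neural crest cell cultures. They do not say whether the 3 arrays of a group came from separate cultures, so the p-values take in the spread among these arrays alone, whether biological or technical.

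Cells meet superoxide and hydrogen peroxide as by-products of respiration. Superoxide dismutases turn superoxide into hydrogen peroxide, and catalase and the peroxiredoxins break the peroxide down. Peroxiredoxins are recharged by thioredoxin, which is itself reduced by thioredoxin reductase with NADPH. Glutathione, the main small thiol of the cell, is built from glutamate, cysteine and glycine, and glutamate-cysteine ligase catalyses its slow first step. In mammals the transcription factor NRF2 (gene NFE2L2) raises HMOX1, GCLC, GCLM, TXNRD1 and other genes of this defence under oxidative or electrophilic stress. Homocysteine, a thiol amino acid of the methionine cycle, can be converted through cystathionine to cysteine and so lies upstream of glutathione.

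The measure is the deposited linear intensity of a probe set. The background of an array is the 95th percentile of its 57 reporter probe sets, which carry exogenous sequences. It was 77.16, 84.88 and 53.24 on homocysteine 1, 2 and 3, and 53.68, 64.32 and 65.62 on control 1, 2 and 3. Replicate 1 of each group stood apart. For ACTB the 5' signal divided by the 3' signal, a measure of RNA length, was 0.059 on homocysteine 1 and 0.0572 on control 1, against 0.238 to 0.421 on the other 4 arrays. The log2 changes of named genes are therefore also given without the replicate 1 arrays. For GAPDH the ratio was 0.311 on homocysteine 1 and 0.302 on control 1, and 0.655 and 0.632 on homocysteine 2 and control 2. On homocysteine 3 it was 0.445, against 0.634 on control 3, and the ACTB ratio was 0.238 there against 0.287. The part of this difference in the number 3 comparisons was not tested. Of 11 neural crest markers 10 were above background on all 6 arrays, SOX10 among them, with a summed intensity of 9785 to 20837 in homocysteine cultures and 9428 to 22746 in control cultures. Markers of other cell types were also read. On all 6 arrays this held for 4 of 4 measured neural tube genes, with sums of 11969.5 to 15850.5 in homocysteine cultures and 10576 to 15062 in control cultures. It held for 5 of 6 neuronal genes (12624 to 16056 with homocysteine, 12129 to 12328 in control). It held for 3 of 3 genes of surface ectoderm (4619 to 6081 with homocysteine, 3805 to 8289 in control), for 3 of 3 of endoderm (852.2 to 956.9 with homocysteine, 724.6 to 1035 in control) and for 2 of 6 of mesoderm (886.4 to 1747 with homocysteine, 662.4 to 1093 in control). For endothelium it was 2 of 5 (800.9 to 1036 with homocysteine, 591.5 to 1172 in control), for blood 2 of 3 (517.8 to 884.3 with homocysteine, 810.5 to 1106 in control) and for heart muscle 0 of 4 (165.7 to 201.5 with homocysteine, 155.7 to 188.6 in control). TBX6, TCF15, NKX2-5 and TNNT2 were not above background on any array. The part of these cells in the results below was not tested. In bulk RNA, fewer cells of a type and less RNA per cell cannot be told apart.

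No difference between homocysteine and control cultures was detected for any of the antioxidant enzymes. Of the 10 main probe sets, 8 were above background on all 6 arrays, and their log2 changes (homocysteine minus control) ran from -0.12 for PRDX3 to 0.14 for TXN. Main sets were picked for brightness, so the like comparison is by gene. Of the 13009 genes with a symbol, 7917 other than the members had a main set above background on all 6 arrays. By probe set it was 12 of the 19 member sets, against 37.6% of all chicken probe sets. HMOX1, the inducible haem oxygenase, and TXNRD1, a thioredoxin reductase, lay near background, above it on 3 and 5 arrays. Of all chicken probe sets, brightest of their gene or not, 50.2% were above it on at least 3. The apparent differences of HMOX1 and TXNRD1 did not pass the test. None of the 10 genes passed an adjusted p of 0.05 in limma (Benjamini-Hochberg, adjusted over the 38382 chicken probe sets). The share called over the whole array was 0.0%, so the count of members called, 0 of 10, equals the background. At an unadjusted p under 0.05 there were also 0 of the 19 member probe sets, against 3.97% of all chicken probe sets. The groups overlapped for all 19, while over the whole array the homocysteine values lay wholly higher for 4.18% and wholly lower for 2.96%, and among sets above background throughout for 1.9% and 2.06%. Changes of 1 or more in log2, up or down, occurred in 0 of the 8 main sets above background throughout and in 0.0485% of all such sets.

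**Figure D1:**
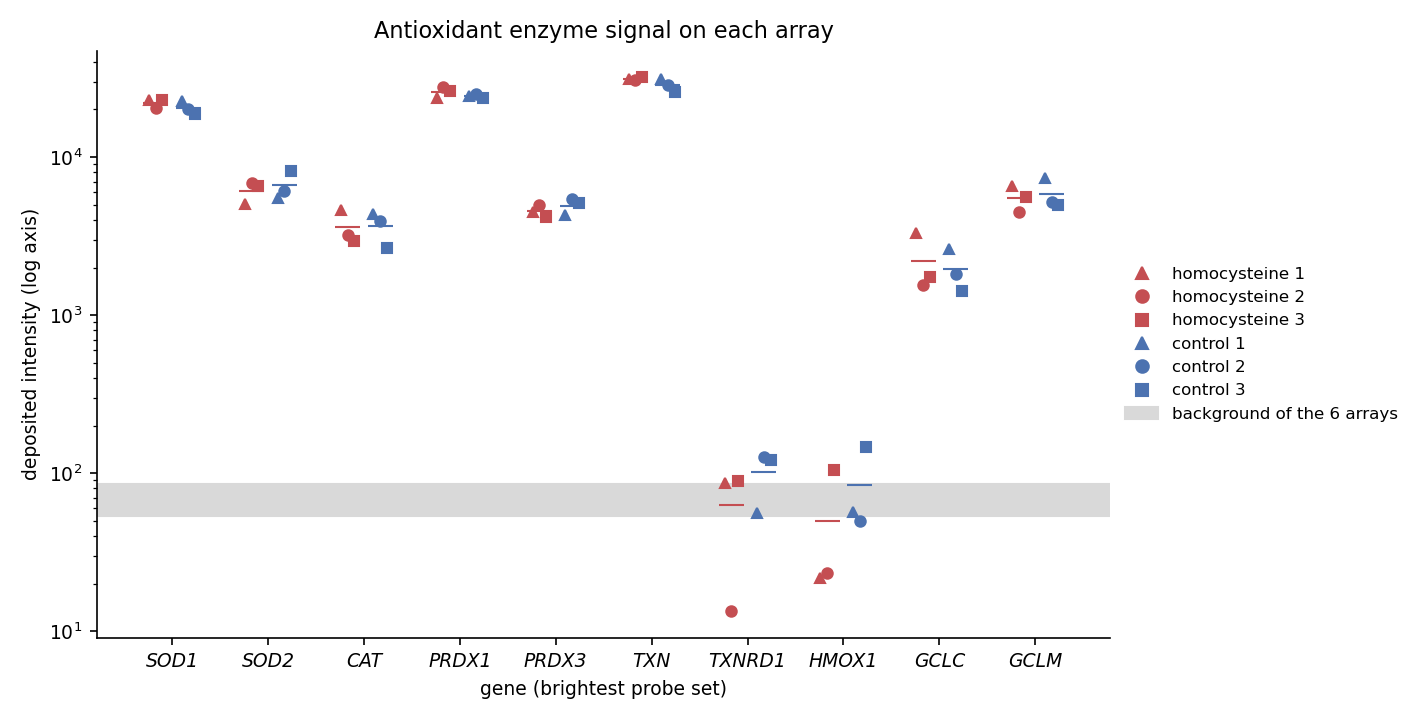
Deposited intensity (log axis) of the main probe set of each gene on each array, homocysteine in red to the left of control in blue; triangles, circles and squares are replicates 1, 2 and 3, and bars are group means (n = 3). The grey band spans the backgrounds of the 6 arrays, 53.24 to 84.88; TXNRD1 and HMOX1 lie at it and the other 8 genes lie above it on every array, and heights are not comparable between genes because probe sets differ in brightness.

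SOD1 encodes the cytosolic copper-zinc superoxide dismutase. Its main probe set was read at 22879.5, 20473.2 and 22854.6 on homocysteine 1, 2 and 3, against 22481.2, 20127.9 and 18719.6 on control 1, 2 and 3. The lowest array was a control, and the groups overlapped. Means were 22069 ± 1382 with homocysteine and 20443 ± 1900.5 in control (SD, n = 3 each). The log2 change was 0.11 with a 95% interval from -0.51 to 0.73 (adjusted p = 0.9999, limma), and 0.16 without the replicate 1 arrays. SOD1 was higher with homocysteine in each same-numbered comparison, by 0.03, 0.02 and 0.29 in log2 for numbers 1, 2 and 3, so number 3 carried most of the difference. An exact two-sided permutation test of 3 arrays against 3 gave p = 0.2, where the smallest it can give is 0.1. The second SOD1 probe set was above background on homocysteine 3 and control 3 only, at 54.0 and 68.1.

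SOD2, the manganese superoxide dismutase of mitochondria, had intensities of 5017.2, 6814.8 and 6550.0 on homocysteine 1, 2 and 3, against 5531.1, 6127.9 and 8180.2 on control 1, 2 and 3. The groups overlapped, and within each group replicate 1 was the lowest array. Means were 6127 ± 970.5 with homocysteine and 6613 ± 1389.6 in control (SD, n = 3 each). The log2 change was -0.10 and its interval ran from -0.84 to 0.64. Same-numbered differences were -0.14, 0.15 and -0.32, of mixed sign. Without the replicate 1 arrays the log2 change was -0.08.

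CAT encodes catalase, the peroxisomal enzyme that splits hydrogen peroxide into water and oxygen. Its main probe set was read at 4640.5, 3218.6 and 2955.9 on homocysteine 1, 2 and 3, against 4378.3, 3928.7 and 2652.6 on control 1, 2 and 3. In each group replicate 1 was the highest array and replicate 3 the lowest. Means were 3605 ± 906.3 with homocysteine and 3653 ± 895.2 in control (SD, n = 3 each), and the log2 change was -0.02 with an interval from -0.86 to 0.83. It was -0.07 without the replicate 1 arrays.

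A pair of dimmer CAT probe sets was also above background on every array. One was read at 2545.9, 2180.9 and 2534.3 on the homocysteine arrays, against 2842.9, 1822.2 and 1971.4 on the control arrays, a log2 change of 0.15 that became 0.31 without the replicate 1 arrays. The other was read at 178.5, 236.2 and 125.4 with homocysteine, against 155.4, 191.6 and 169.8 in control, a log2 change of 0.02 that became -0.07 without the replicate 1 arrays. The 3 CAT sets did not share a direction in any same-numbered comparison. For number 1 the main set differed by 0.08 and the others by -0.16 and 0.20, and for number 3 they differed by 0.16, 0.36 and -0.44.

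PRDX1 encodes a cytosolic peroxiredoxin and PRDX3 its mitochondrial relative. PRDX1 was read at 23636.2, 27779.9 and 26207.5 on homocysteine 1, 2 and 3, against 24240.7, 25070.7 and 23555.4 on control 1, 2 and 3. The highest array was homocysteine 2, and homocysteine 1 lay below control 1 and control 2. Means were 25875 ± 2092 with homocysteine and 24289 ± 758.8 in control (SD, n = 3 each), with a log2 change of 0.09, an interval from -0.52 to 0.70, and 0.15 without the replicate 1 arrays.

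For PRDX3 the main probe set gave 4466.6, 4938.2 and 4197.3 with homocysteine, against 4292.8, 5400.4 and 5102.7 in control. The groups overlapped. Means were 4534 ± 375.0 with homocysteine and 4932 ± 573.2 in control (SD, n = 3 each), the log2 change was -0.12 with an interval from -0.76 to 0.52, and it was -0.21 without the replicate 1 arrays. A dimmer PRDX3 set, at 429.0, 740.3 and 667.6 with homocysteine, against 464.1, 917.3 and 768.4 in control, was lower with homocysteine for every number, with log2 differences of -0.11, -0.31 and -0.20. Its log2 change was -0.21 with an interval from -1.18 to 0.76, or -0.26 without the replicate 1 arrays. Leaving out 1 array moved the log2 change of the main set between -0.21 (without control 1) and -0.05 (without control 2), and to -0.06 without homocysteine 3. The main set was lower for numbers 2 and 3 only, at -0.13 and -0.28, and was 0.06 higher for number 1.

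TXN encodes thioredoxin, the small dithiol protein that reduces peroxiredoxins. Its 1 probe set was read at 31129.3, 30947.2 and 31900.3 on homocysteine 1, 2 and 3, against 30973.0, 28748.6 and 25837.9 on control 1, 2 and 3. The homocysteine arrays lay close together, and control 1 lay just above the lowest of them, so the groups overlapped. Means were 31326 ± 506.0 with homocysteine and 28519.8 ± 2575 in control (SD, n = 3 each). The log2 change was 0.14 with an interval from -0.47 to 0.75 (exact two-sided permutation p = 0.2), and 0.21 without the replicate 1 arrays. TXN was higher with homocysteine for every number, by 0.01, 0.11 and 0.30.

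The bright end of control 3 differed from the other arrays. The highest intensity of any probe set was 33783.0 there, against 40506.1 to 41383.7 on the other 5 arrays. Quantile normalization, which gives all arrays one distribution, took the log2 change of TXN to 0.06, that of SOD1 to 0.06 and that of PRDX1 to 0.03. Without control 3 the deposited values gave 0.07 for TXN, 0.05 for SOD1 and 0.07 for PRDX1. Of the 8 main probe sets above background throughout, SOD1 and TXN were the ones higher for every number and none was lower for every number. Over all probe sets above background on all 6 arrays, 11.7% were higher for every number and 13.8% lower.

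TXNRD1 encodes the cytosolic thioredoxin reductase, a selenoprotein. Its main probe set was read at 86.3, 13.4 and 89.4 on homocysteine 1, 2 and 3, against 56.2, 127.1 and 120.3 on control 1, 2 and 3. It was above background on all arrays except homocysteine 2, and never by more than 1.98 times. Means were 63.03 ± 43.01 with homocysteine and 101.2 ± 39.12 in control (SD, n = 3 each). The log2 change was -1.02 and its interval ran from -3.08 to 1.04 (exact two-sided permutation p = 0.5). The size rested on homocysteine 2: without that array the log2 change was -0.11, and with values below background raised to it -0.13. Without the replicate 1 arrays it was -1.84. The other 2 TXNRD1 probe sets were above background on no array and reached at most 17.8, so the level of this gene was not measured well enough for a fold.

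HMOX1 encodes haem oxygenase 1, which breaks haem down to biliverdin, iron and carbon monoxide and is the stress-inducible form in mammals. Its 1 probe set was read at 21.8, 23.4 and 104.2 on homocysteine 1, 2 and 3, against 56.6, 49.8 and 147.0 on control 1, 2 and 3. It was above background on homocysteine 3, control 1 and control 3. On the number 3 arrays it also exceeded the brightest reporter set, which was at 77.6 on homocysteine 3 and 94.2 on control 3. HMOX1 was lower with homocysteine for every number, with log2 differences of -1.38, -1.09 and -0.50, while 12.1% of all chicken probe sets were lower for every number. Replicate 3 was the highest array of each group, and the groups overlapped.

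The log2 change of HMOX1 was -0.99 with an interval from -2.86 to 0.89 (adjusted p = 0.9999, limma; exact two-sided permutation p = 0.3). Means were 49.8 ± 47.12 with homocysteine and 84.47 ± 54.26 in control (SD, n = 3 each). The background itself was higher on homocysteine 1 and 2 than on any control array. With values below background raised to it the sign turned, to 0.12. Without the replicate 1 arrays the log2 change was -0.79, without homocysteine 3 it was -1.72 and without control 3 it was -0.50. No induction of HMOX1 after 6 h was detected, and a probe set this close to background allowed no firm statement on a decrease.

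**Figure D2:**
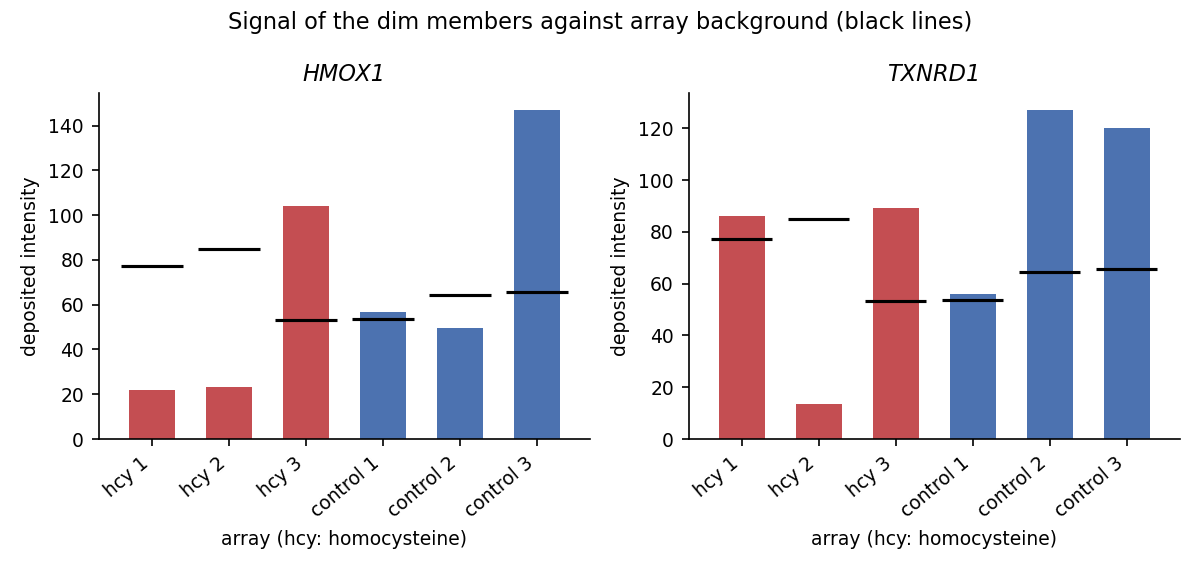
Deposited intensity of the main probe sets of HMOX1 and TXNRD1 on each array (bars, homocysteine in red, control in blue), with the background of that array as a black line. HMOX1 exceeds the line on homocysteine 3, control 1 and control 3, and TXNRD1 exceeds it on every array except homocysteine 2.

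GCLC and GCLM encode the catalytic and the modifier subunit of glutamate-cysteine ligase, the rate-limiting enzyme of glutathione synthesis. GCLC was read at 3323.1, 1545.1 and 1732.8 on homocysteine 1, 2 and 3, against 2623.2, 1810.3 and 1411.3 on control 1, 2 and 3. Replicate 1 of each group lay above the other 4 arrays. Means were 2200.3 ± 976.9 with homocysteine and 1948 ± 617.6 in control (SD, n = 3 each), the log2 change was 0.14 with an interval from -0.91 to 1.19, and it was 0.03 without the replicate 1 arrays. Same-numbered differences were 0.34, -0.23 and 0.30. Of its other 2 probe sets one was above background on control 2 only, at 76.2, and the other on no array.

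GCLM had 2 probe sets above background throughout. The main one gave 6538.0, 4486.9 and 5619.3 with homocysteine, against 7390.0, 5186.1 and 5007.4 in control, and the dimmer one 3204.4, 2140.9 and 2591.6 with homocysteine, against 3974.6, 2765.5 and 2642.6 in control. On both sets control 1 was the highest and homocysteine 2 the lowest array. The main set had a mean of 5548 ± 1027 with homocysteine and 5861 ± 1327 in control (SD, n = 3 each) and a log2 change of -0.07 with an interval from -0.84 to 0.69, or -0.02 without the replicate 1 arrays. The dimmer set had a log2 change of -0.24 with an interval from -1.01 to 0.54, or -0.20 without them. Same-numbered differences of the dimmer set were all negative, at -0.31, -0.37 and -0.03, and those of the main set were -0.18, -0.21 and 0.17. The subunits thus differed in the sign of their estimates, each within the spread of the arrays.

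The intervals give the range of change allowed by the spread among these arrays. For 7 of the 8 main probe sets above background on all 6 arrays, the 95% interval lay within a 2-fold change in either direction; the exception was GCLC. Counting every member probe set above background throughout, this held for 9 of 12, the others being the dimmer sets of PRDX3 and GCLM. The fit pools its variance over all chicken probe sets, dim ones included, which widens these intervals. Fitted over the 14437 probe sets above background on all 6 arrays, the interval lay within 2-fold for 12 of 12. It ran, for example, from -0.28 to 0.56 for TXN and from -0.70 to 0.97 for GCLC. TXN, PRDX1 and SOD1 lay near the top of the scale, with means over the 6 arrays of 29923, 25082 and 21256. The highest intensity of any probe set was 33783.0 to 41383.7 by array, so a 2-fold rise of these genes would pass every value read. Whether a signal ceiling narrowed their upper bounds was not tested. In the fit over all chicken probe sets, leaving out the replicate 1 arrays took the intervals of SOD1, SOD2, CAT, PRDX1, PRDX3 and TXN past 2-fold. For example, they then ran from -0.66 to 1.07 for TXN and from -1.11 to 0.98 for CAT. Those of GCLC and the main GCLM set lay within 2-fold there. Leaving out 1 array also took some intervals past 2-fold, and not only for replicate 1. They ran from -1.14 to 0.79 for GCLM without control 3 and from -1.11 to 0.74 for SOD2 without homocysteine 2. For CAT without homocysteine 1 the interval ran from -1.17 to 0.74. Those of SOD1, PRDX1, PRDX3 and TXN stayed within 2-fold whichever 1 array was left out. With arrays centred on their medians, the GCLM interval ran from -1.02 to 0.76. The median log2 change of the 8 main sets was 0.04, against -0.0051 over those 14437, and that of all 10 was -0.04, against 0.02 over all 38382. Of the 8 estimates 4 were positive and 4 negative.

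**Figure D3:**
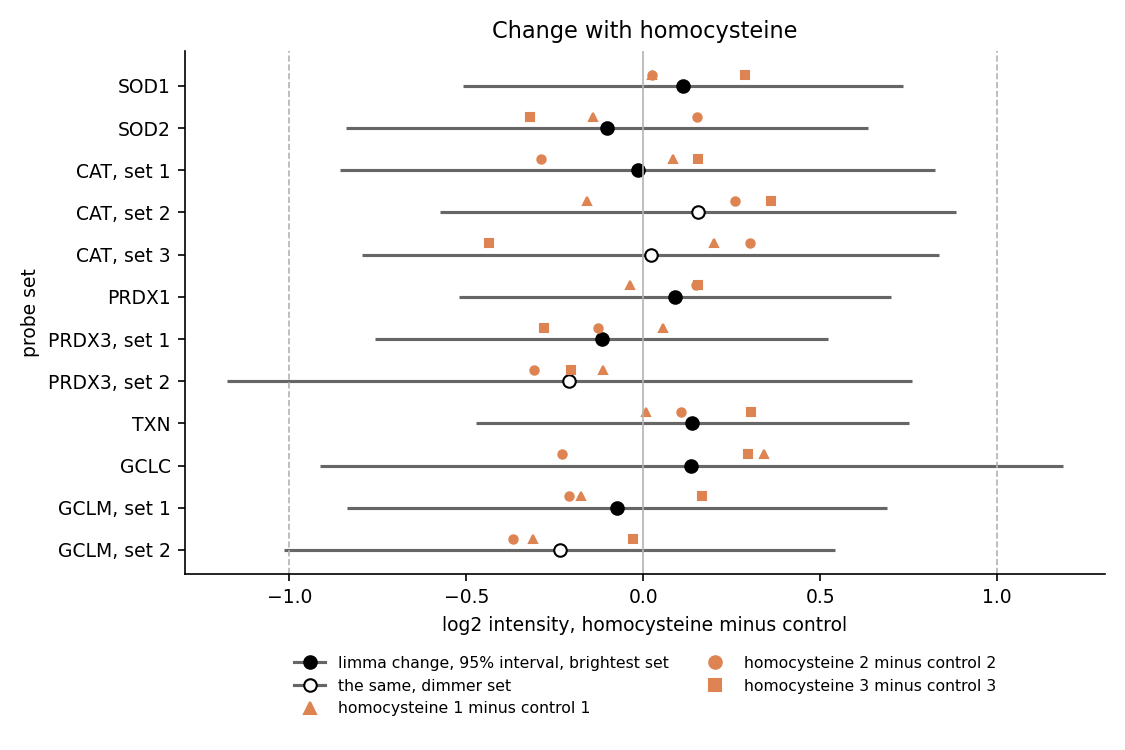
Log2 change (homocysteine minus control) of the 12 member probe sets above background on all 6 arrays, with its 95% limma interval, and in orange the differences between same-numbered arrays (for SOD1 the symbols of numbers 1 and 2 coincide). Every interval spans 0; dashed lines mark a 2-fold change, which the intervals of GCLC and of the dimmer sets of PRDX3 and GCLM cross.

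For SOD2, CAT, GCLC and GCLM the difference between replicate 1 and the other replicates of a group was larger than that between homocysteine and control. GCLC on replicate 1 exceeded the mean of replicates 2 and 3 by 1.02 in log2 with homocysteine and by 0.71 in control. CAT exceeded it by 0.59 and 0.44, and the main GCLM set by 0.38 and 0.54. SOD2 went the other way, at -0.41 with homocysteine and -0.36 in control. For these 4 genes both replicate 1 arrays lay outside the range of the other 4, CAT, GCLC and GCLM above it and SOD2 below it. Over all probe sets above background on all 6 arrays, 23.5% lay above and 24.0% below in this way, so 3 and 1 of 8 are near the share of the whole array. The low 5' to 3' ratio of ACTB moves with this split, and its part was not tested. The main sets of SOD1, PRDX1, PRDX3 and TXN showed no such split. The dimmer PRDX3 set did, with replicate 1 lower by -0.71 in log2 with homocysteine and -0.86 in control. Of the 12 member sets above background throughout, both replicate 1 arrays lay above the other 4 for 5 and below them for 2.

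**Figure D4:**
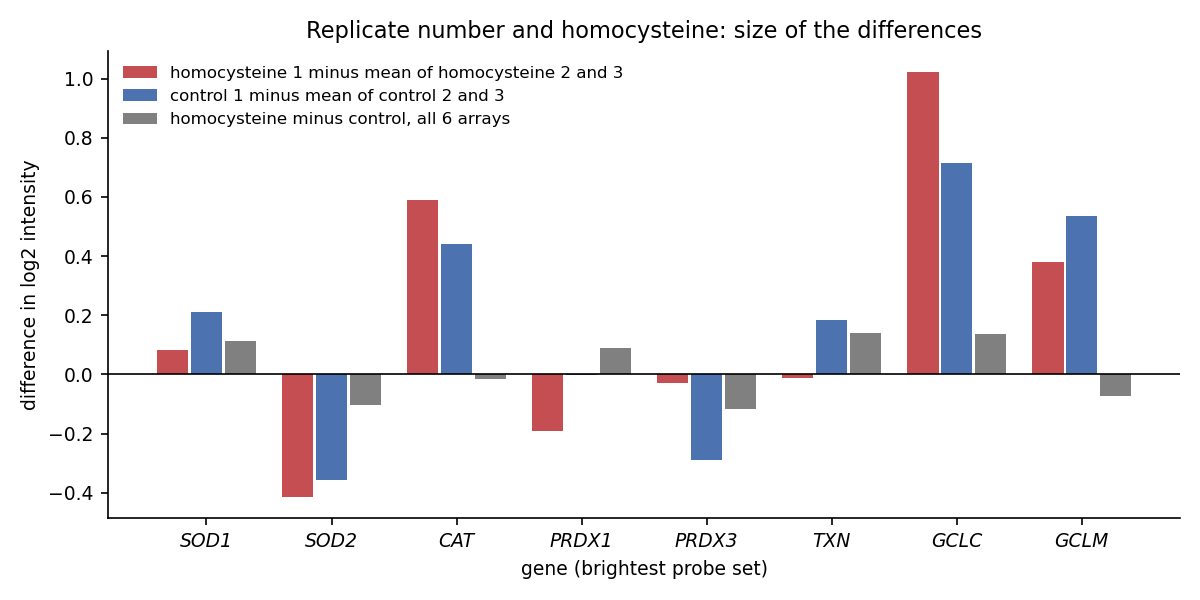
For the 8 genes above background on all 6 arrays, the log2 intensity of homocysteine 1 minus the mean of homocysteine 2 and 3 (red), of control 1 minus the mean of control 2 and 3 (blue), and the change with homocysteine (grey). For SOD2, CAT, GCLC and GCLM the red and blue bars share a sign and exceed the grey one.

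The wider antioxidant defence showed no called change either. Of 78 further genes listed, 62 were measured under their symbol, 56 were above background on at least 3 arrays and 46 on all 6. Of the 62, 0 passed the threshold in either direction (0.0% over the whole array; limma, Benjamini-Hochberg), and 1 had an unadjusted p under 0.05. The median log2 change of the 62 was 0.03. Of the 46, 2 were higher with homocysteine for every number (TXNRD3 and MGST1) and 2 lower (GPX8 and GLRX2). Over all probe sets above background on all 6 arrays the shares were 11.7% and 13.8%.

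The gene with an unadjusted p under 0.05 (limma) was GLRX. It encodes a glutaredoxin, an enzyme that uses glutathione to reduce protein disulfides. GLRX was named after its values were seen. Its single probe set was read at 63.5, 134.5 and 122.1 on homocysteine 1, 2 and 3, against 45.9, 50.7 and 31.7 on control 1, 2 and 3. It was above background on homocysteine 2 and 3 and on no control array, and the groups did not overlap, as in 4.18% of all probe sets on the side of higher values with homocysteine. The adjusted p was 0.9999 (limma; unadjusted p = 0.0203), and 0.647 without the replicate 1 arrays. No fold is given, since 4 of the 6 values lay below background, homocysteine 1 among them.

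Among 9 measured genes of superoxide and peroxide removal, 5 estimates were positive and 4 negative, with a median of 0.05. GPX4, which reduces lipid peroxides in membranes, was read at 9359.4, 15436.3 and 15646.4 with homocysteine, against 9540.5, 13511.6 and 13044.0 in control. PRDX4, a peroxiredoxin of the endoplasmic reticulum, had a log2 change of -0.0039. GPX7 and GPX8, peroxidases of the same compartment, had the largest changes of the 6 genes above background throughout, at -0.16 each, and GPX8 was lower for every number. Without the replicate 1 arrays the log2 changes were 0.23 for GPX4, -0.0011 for PRDX4, -0.04 for GPX7 and -0.07 for GPX8.

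Of 13 genes of the thioredoxin, glutaredoxin and methionine sulfoxide repair systems, 8 estimates were positive and 5 negative, with a median of 0.06. TXNRD3, another thioredoxin reductase gene, was read at 13754.9, 10151.1 and 12923.8 with homocysteine, against 13746.9, 7676.1 and 10679.5 in control. It was higher with homocysteine for every number, with a log2 change of 0.23 and an interval from -0.59 to 1.04. TXN2, the mitochondrial thioredoxin, had a log2 change of -0.19, and TXNL1, a thioredoxin-like protein gene, 0.06. With the replicate 1 arrays left out, TXNRD3 had 0.34, TXN2 -0.20 and TXNL1 0.08.

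Among 18 genes of glutathione synthesis, recycling and use, 11 estimates were positive and 7 negative, with a median of 0.02. GSR, the glutathione reductase gene, was read at 1028.3, 1643.0 and 1316.0 with homocysteine, against 1169.2, 1408.6 and 1354.4 in control, a log2 change of -0.0016. CTH, which releases cysteine from cystathionine, had a log2 change of 0.0035 with an interval from -0.78 to 0.79. MGST1, a membrane glutathione transferase gene, was higher for every number, with a log2 change of 0.12, and GGCT, an enzyme of glutathione turnover, had 0.21. MGST3, another membrane transferase gene, varied widely by number, at 601.3, 3610.7 and 2692.1 with homocysteine, against 1048.5, 3145.6 and 2770.2 in control, a log2 change of -0.21 that became 0.08 without the replicate 1 arrays. Without them GSR had 0.09, CTH 0.06, MGST1 0.15 and GGCT 0.27.

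Of 15 genes of NRF2 control and its other targets, 7 estimates were positive and 8 negative, with a median of -0.07. NFE2L2 itself was read at 1754.6, 1401.5 and 1504.4 with homocysteine, against 1492.1, 2111.2 and 1745.6 in control, a log2 change of -0.19 with an interval from -0.88 to 0.50. CUL3, a ubiquitin ligase scaffold that acts with KEAP1 in NRF2 turnover, had the largest change of the 11 genes above background throughout, at -0.27 with an interval from -0.97 to 0.42. NFE2L1, a related transcription factor gene, had 0.13, and TALDO1, an enzyme of the pentose phosphate pathway, 0.10. Leaving out the replicate 1 arrays gave -0.40 for NFE2L2, -0.35 for CUL3, 0.21 for NFE2L1 and 0.15 for TALDO1. KEAP1 had no probe set under its symbol.

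In haem and iron handling, 6 of 7 estimates were positive, with a median of 0.07. HMOX2, the constitutive haem oxygenase, was read at 12686.2, 9231.6 and 11659.1 with homocysteine, against 12014.6, 11015.0 and 9713.5 in control, a log2 change of 0.03. BLVRA, which turns biliverdin into bilirubin, had 0.17. FTH1, the iron-storing ferritin heavy chain, had 0.16 with an interval from -1.10 to 1.41. It was read at 11651.8 on homocysteine 1 and 9122.2 on control 1, against 21060.2 to 24038.6 on the other 4 arrays. On those 4 arrays the log2 changes were 0.06 for FTH1, 0.01 for BLVRA and 0.0043 for HMOX2.

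**Figure D5:**
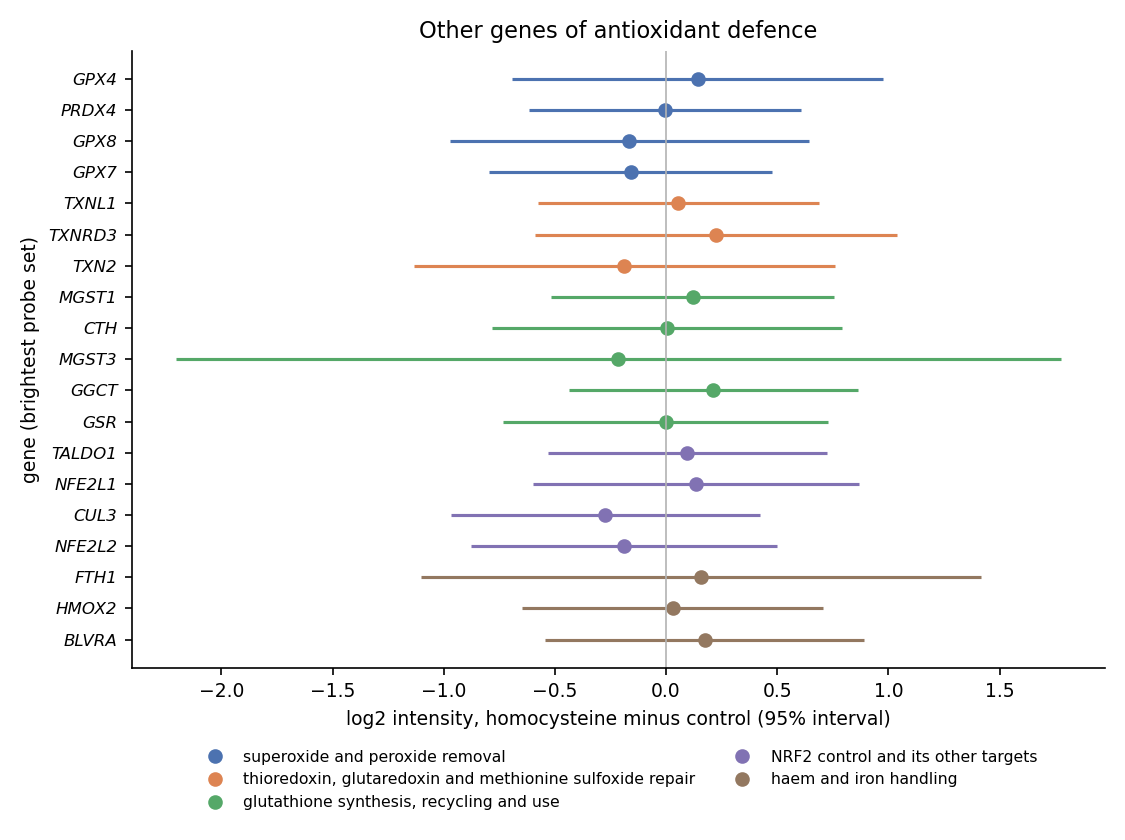
Log2 change (homocysteine minus control) and 95% limma interval of the 19 named genes of antioxidant defence beyond the 10 that were above background on all 6 arrays, coloured by list. Every interval spans 0, and the widest belong to MGST3 and FTH1, whose replicate 1 arrays stand apart from the other 4.

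The mean profile of the 8 genes above background throughout varied little over the arrays. It averages opposite movements, since on the replicate 1 arrays CAT, GCLC and GCLM were high and SOD2 was low. Centred on its mean, the profile lay at 0.13, -0.06 and -0.04 in log2 on homocysteine 1, 2 and 3 and at 0.11, -0.0084 and -0.13 on control 1, 2 and 3. Of 7917 other genes above background on all 6 arrays, ARF1, ANAPC5 and CTNNB1 came nearest to it, with root mean square differences of 0.024, 0.029 and 0.03 over the 6 arrays. All of these values share the arrays and the split by replicate 1.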

How the data were processed

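Total RNA of 6 neural crest culture samples was read on 1-colour Affymetrix arrays. The authors deposited a linear intensity for each probe set. The submitters' processing notes name RMA, but these linear values share a mean of 500.1 per array after trimming 2% at each end, which is not the form of RMA output. How background was corrected is not given in the sources used here. Cy3 and Cy5 stand in the labels, yet the table has 1 channel.

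Log2 was taken of each intensity, with no pseudocount. The 96 Affymetrix control sets and 57 reporter sets were left out, and 38382 chicken probe sets were fitted with limma 3.58.1 in R 4.3.3 (lmFit, eBayes, two-sided; Benjamini-Hochberg, threshold 0.05). Exact permutation tests used scipy 1.17.1. The code of the fit was checked on simulated data, with noise drawn independently for each array and no shared effect of replicate number. That check is not used here as a measure of the changes that these arrays could show. Groups and numbers came from sample titles. Symbols came from the platform annotation, updated by gene number through a RefSeq table of GRCg7b (names only). The members, background and gene lists were chosen with earlier results of these data known. Other genes were named by rule: NFE2L2, KEAP1 and GSR, and per list the called ones or, with none, the 2 brightest and the 2 with the largest change among those above background on all 6 arrays. The number of arrays limits the precision.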

Additional observations from a re-analysis of the deposited data

How the results depend on the processing

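All settings here had been listed as alternatives together with the tests. The count of member genes called was 0 in limma in every setting run for it: the replicate block, a pseudocount of 50, a trended and robust variance, quantile normalization, centring on medians, dim values raised to background, fewer probe sets, means over the probe sets of a gene, each array left out and both replicate 1 arrays left out. The smallest adjusted p of a member was 0.875, for TXN with dim values raised to background (0.875 to 0.99998 over all). Over all probe sets fitted the count was 0 in every setting, with array weights and a threshold of 0.1 as well. The number at an unadjusted p under 0.05 (limma) depended on the sets tested. It was lowest at 157 of the 14437 sets above background on all 6 arrays. It was highest at 2107 of all 38382, with both replicate 1 arrays left out. The count among the 62 other genes was also 0, with 0 to 2 at an unadjusted p under 0.05.

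Whether the correlation of same-numbered arrays met the minimum asked for depended on the probe sets used. Over all probe sets, deviations from the group means correlated by 0.172, 0.108 and 0.0486 for numbers 1, 2 and 3, the last below the 0.1 asked for. Over those above background on all 6 arrays they correlated by 0.786, 0.703 and 0.332. In either case each of the 6 arrays had its best correlation with the array of its own number, a hint from the data and not from the design. The replicate block gave 0 calls and so changed no call. It gave 2023 probe sets at an unadjusted p under 0.05 (limma) against 1524 without it. Among them was 1 member, HMOX1, at an unadjusted p of 0.0303 (limma, adjusted 0.932). Its interval with the block ran from -1.81 to -0.17, for a probe set above background on only 3 arrays. HMOX1 also reached 0.0316 without homocysteine replicate 3. With the block the GCLC interval ran from -0.57 to 0.84, within 2-fold, against -0.91 to 1.19 without it.

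No estimate whose sign turned had passed the test. Of 158 alternative values over the 10 genes, 13 turned in sign, all of them in 5 genes. Leaving out 1 array moved the log2 change of SOD2 between -0.22 and 0.061, turning it at 0.035 without homocysteine replicate 1 and 0.061 without control replicate 3. In the same settings CAT moved between -0.23 and 0.13, GCLC between -0.20 and 0.37 and GCLM between -0.20 and 0.11. The other genes kept their sign in these settings: SOD1 between 0.05 and 0.18, PRDX1 between 0.04 and 0.15, PRDX3 between -0.21 and -0.05, TXN between 0.07 and 0.20, TXNRD1 between -1.48 and -0.11 and HMOX1 between -1.72 and -0.50. CAT was 0.053 as the mean of its probe sets, all or those above background on at least 3 arrays. HMOX1 was 0.12 with dim values raised to background, where 3 of its 6 values are the background itself. With a pseudocount of 50, HMOX1 was -0.46 and TXNRD1 -0.47. Against the highest reporter set of each array 8 main probe sets were above on all 6 arrays, as with the 95th percentile, and 9 against the median reporter.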
